A study of Bos taurus with 3 samples.

Results

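Transcription factors known from the somatic cells of the gonad were looked for among bovine ovarian cultures on an expression array. The 10 symbols were TCF21, NR2F2, NR5A1, FOXL2, GATA4, GATA6, WT1, LHX9, EMX2 and NR0B1, listed by their known role in the gonad and with no threshold on their values. Earlier results of these data were known when the list was made, so it is not independent of them. Of these, 8 had a named probe set, among 9155 genes measured in all, and were read by 15 probe sets. For WT1 and LHX9 no probe set carried the symbol, so they were not analysed here. The fetal cells were gonadal ridge epithelial-like (GREL) cells, polygonal cells grown as 2 clonally enriched isolates from fetal ovaries labelled 130 days of gestation, although the methods give a slightly younger age for 1 of them. They were set against 1 culture of fibroblasts that had been grown from the medullar stroma of 1 adult animal. Both kinds of cell came from collagenase-dispersed ovaries of Bos taurus cattle and were grown in DMEM/F12 with fetal calf serum. The collagenase was more concentrated for the adult stroma. Growth until partly confluent is stated for the GREL cultures alone. Each culture was hybridised to 1 array. Age, cell type and culture therefore cannot be told apart in any difference given here.

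The gonad begins as a ridge of coelomic epithelium over the mesonephros, and its somatic cells later become the supporting cells, the steroid-producing cells and the stroma. In mice, GATA4, EMX2, WT1 and LHX9 are needed for the ridge to form, and NR5A1, also called SF1, is the nuclear receptor that switches on steroidogenic genes. NR0B1 (DAX1) is a nuclear receptor without a DNA-binding domain of the usual kind that represses NR5A1 activity. FOXL2 is the forkhead factor of granulosa cells. NR2F2 (COUP-TFII) marks stromal and interstitial cells, and TCF21 is a basic helix-loop-helix factor of mesenchyme that represses Nr5a1 in the mouse gonad.

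Values are log2 expression as deposited, rounded to steps of 0.1, so that a difference of 1 is 2-fold. The 3 arrays had medians of 3.0 for GREL isolate 1, 2.9 for GREL isolate 2 and 2.9 for the fibroblasts. Where a gene had several probe sets, the one with the highest mean over the arrays stood for the gene. As the table holds no detection calls, the level of 62 genes of other organs was used as a mark of background. Their 90th percentile was 6.2 in GREL isolate 1, 6.0 in GREL isolate 2 and 5.99 in the fibroblasts, and their medians were 1.85, 1.95 and 2.0. Probe sets differ in brightness at equal RNA, so this mark does not rank one gene against another. Some of the 62 genes were bright themselves, up to 11.7, so the mark is a strict one. Of 24016 probe sets, 4743 reached it on at least 1 array, and a gene under it is not shown to be absent. The fibroblasts had no replicate, and with 2 arrays against 1 an exact permutation test cannot give a p below 0.333. A difference over 3-fold in both isolates was therefore counted as a call. The spread in the limma fit came from the 2 isolates alone, with 1 residual degree of freedom. Marker genes were read as a check of the labels. Of 8 fibroblast markers, 1 was over 3-fold lower in both isolates (PDGFRA) and 0 were higher, beside 2.38% of all genes each way. Their summed log2 levels were 70.7 and 63.7 in the GREL isolates and 76.4 in the fibroblasts. Of 7 epithelial markers, 3 were over 3-fold higher in both isolates (KRT7, KRT19 and PKP2) and 0 over 3-fold lower, beside 2.38% of all genes each way. Their sums were 45.0 and 42.2 in the GREL isolates and 29.8 in the fibroblasts. KRT18 (11.4 and 11.8, fibroblasts 10.4) and KRT19 (11.3 and 11.6, fibroblasts 7.1) were above the mark in the fibroblasts too. The markers thus differ in level between the cultures, and many are present in both. KRT7 was under the mark on every array and PKP2 above it in isolate 1 alone. The isolates differed in EPCAM (3.9 and 1.5, fibroblasts 1.0) and CDH1 (4.7 and 3.2, fibroblasts 3.6). No marker was listed at 0.

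TCF21 was over 3-fold lower in the measured values of the GREL cells than in the fibroblasts, and the nuclear receptor NR2F2 was lower by a smaller amount. NR5A1 also had lower values in the GREL cells, but all of them lay under the background mark. GATA4, GATA6 and EMX2 had similar values on the 3 arrays. FOXL2 lay near the median of the genes of other organs on every array, and NR0B1 within 1 of it. Over 3-fold lower in both isolates was 1 of the 8 factors, where 2.38% of all genes were, and over 3-fold higher in both was 0 of the 8, where 2.38% of all genes were. At 2-fold, 3 of the 8 were lower in both isolates, the dim NR5A1 among them, against 4.78% of all genes. Of the 15 probe sets, 2 were over 3-fold lower (TCF21 and 1 of NR2F2) and 0 were higher, beside 1.74% and 1.58% of all 24016 probe sets. By any amount, 3 of the 8 factors were lower in both isolates (33.5% of all genes) and 3 were higher in both (41.6% of all genes), while for the other 2 the fibroblasts lay between the isolates. The median difference of the 8 factors was -0.025, beside 0.05 over all genes. With limma and Benjamini-Hochberg adjustment over all probe sets, 0 of the factors passed an adjusted p of 0.05, as did 0 of all probe sets (0.0% called), although 2354 probe sets were higher and 2666 lower at an unadjusted p under 0.05. The methods' test, run on the same values, also called 0, while limma with a robust prior called 1189 probe sets, none of them of the 8 factors.

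**Figure D1:**
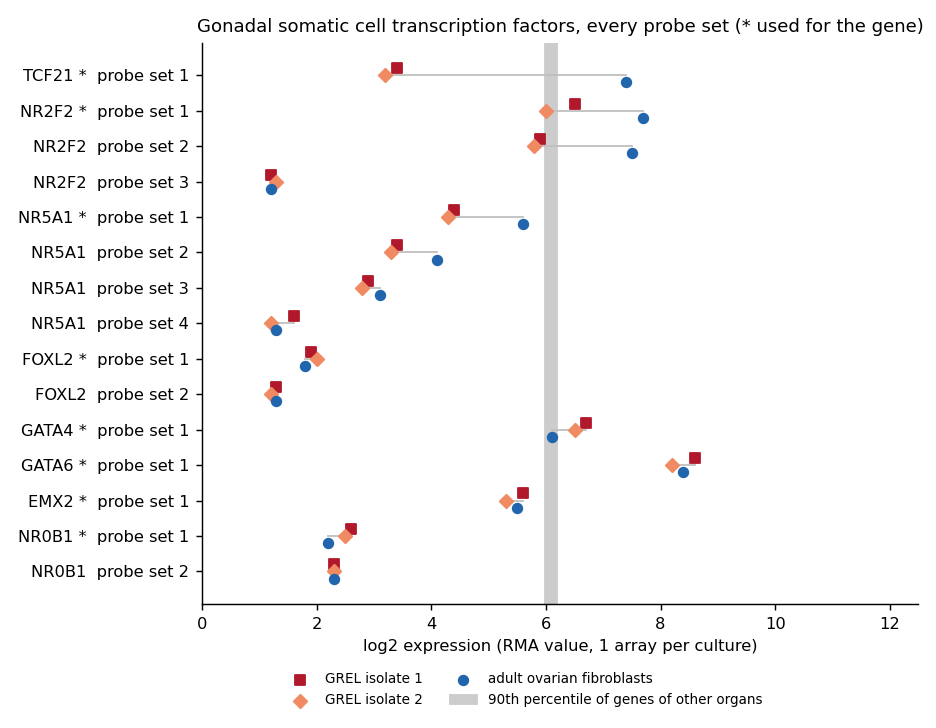
Log2 expression (horizontal axis) of every probe set of the 8 measured transcription factors, with GREL isolate 1 as squares, GREL isolate 2 as diamonds and the adult ovarian fibroblasts as circles. Each point is 1 array, and the grey band spans the 90th percentile of genes of other organs on the 3 arrays, 5.99 to 6.2. TCF21 is at 3.4 and 3.2 in the GREL isolates and 7.4 in the fibroblasts, the widest separation shown.

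TCF21 had log2 values of 3.4 and 3.2 in the GREL isolates and 7.4 in the fibroblasts. Both isolates lay below the background mark and the fibroblasts above it. The measured values were 16.0-fold and 18.4-fold lower in the isolates than in the fibroblasts, but a value below the mark does not fix the size of a fold. With the GREL values set to the mark, TCF21 was 2.46-fold lower, a figure that depends on the percentile chosen. The 95th percentile of the same genes was 8.17 and 8.255 in the GREL isolates and 8.385 in the fibroblasts. All 3 TCF21 values lay under that level, so no such figure can be given with it. The mean difference was -4.10 ± 0.142 (SE, with a 95% interval of -4.92 to -3.28, GREL n = 2, fibroblast n = 1), and its limma adjusted p was 0.182. As measured, 0.153% of the 9155 genes had a lower difference. The gap between the isolates was 0.2, and 56.8% of genes had a gap of that size or less. This gene had 1 probe set, so the difference has no second reading on the array.

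The genes whose pair of isolate differences lay nearest to that of TCF21, by Euclidean distance over the 2 isolates, were PPP1R3C (distance 0.10), SST (0.14), CH25H (0.36), PDGFRL (0.36) and CSF2RB (0.40). PPP1R3C, which targets protein phosphatase 1 to glycogen, had values of 2.5 and 2.4 in the GREL isolates and 6.6 in the fibroblasts. PDGFRL, a receptor-like relative of the PDGF receptors, had 2.4 and 2.7 in the GREL isolates and 6.7 in the fibroblasts. Like TCF21, both were under the background mark in the GREL isolates and over it in the fibroblasts. CH25H, the enzyme that makes 25-hydroxycholesterol, had 1.7 and 1.6 in the GREL isolates and 5.5 in the fibroblasts. SST, the hormone somatostatin, had 2.0 and 1.8 in the GREL isolates and 5.9 in the fibroblasts. CSF2RB, the common beta chain of several cytokine receptors, had 1.9 and 2.1 in the GREL isolates and 5.9 in the fibroblasts. These last 3 were under the mark on all 3 arrays. The likeness rests on 2 differences that share the fibroblast array.

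NR2F2 was read by 3 probe sets, and both of its brighter ones were lower in the GREL cells. The one that stands for the gene had values of 6.5 and 6.0 in the GREL isolates and 7.7 in the fibroblasts. This made isolate 1 2.30-fold and isolate 2 3.25-fold lower, so the gene passed 3-fold in isolate 2 alone. The mean difference was -1.45 ± 0.349 (SE, 95% interval -3.46 to 0.56, limma adjusted p = 0.286), and 3.27% of genes had a lower one. The isolates stood 0.5 apart, the widest gap among the 8 factors. A second probe set had 5.9 and 5.8 in the GREL isolates and 7.5 in the fibroblasts. Both GREL values lay under the background mark. As measured the isolates were 3.03-fold and 3.25-fold lower, the first so near 3-fold that the rounding to 0.1 does not settle on which side it lies. The mean difference was -1.65 ± 0.0748 (SE, 95% interval -2.08 to -1.22, limma adjusted p = 0.182). The third had 1.2 and 1.3 in the GREL isolates and 1.2 in the fibroblasts. It lay below the median of the genes of other organs on all 3 arrays and showed no separation of the groups.

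NR5A1 was read by 4 probe sets, all under the background mark on every array. The brightest had values of 4.4 and 4.3 in the GREL isolates and 5.6 in the fibroblasts. The mean difference as measured was -1.25 ± 0.0748 (SE, 95% interval -1.68 to -0.82, limma adjusted p = 0.182). No fold is given, since neither group was above the mark. The second had 3.4 and 3.3 in the GREL isolates and 4.1 in the fibroblasts, a difference of -0.75. The third had 2.9 and 2.8 in the GREL isolates and 3.1 in the fibroblasts, a difference of -0.25. The fourth had 1.6 and 1.2 in the GREL isolates and 1.3 in the fibroblasts, which lay between the isolates. The first 3 of the 4 probe sets were thus lower in both GREL isolates, by amounts that were smaller the dimmer the probe set.

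**Figure D2:**
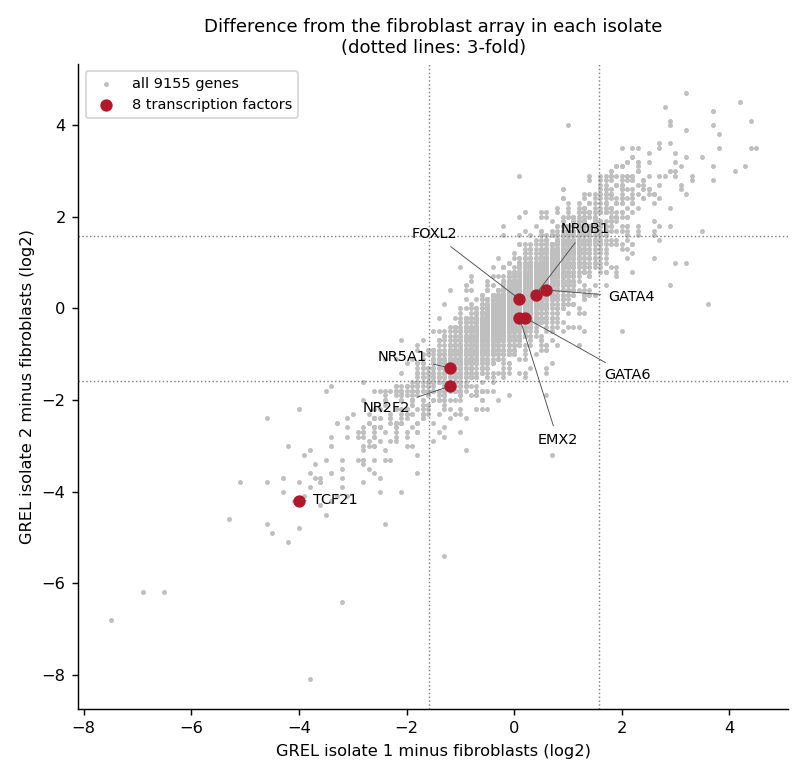
Log2 difference from the fibroblast array in GREL isolate 1 (horizontal axis) and GREL isolate 2 (vertical axis) for all 9155 genes in grey and the 8 transcription factors in red, with dotted lines at 3-fold. TCF21 lies past both lower lines at -4.0 and -4.2, NR2F2 passes the line in isolate 2 alone, and the other 6 lie within 3-fold. Both axes share the fibroblast array.

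The GATA factors are zinc-finger proteins that act in the gonadal ridge and later in granulosa and theca cells. GATA4 had values of 6.7 and 6.5 in the GREL isolates and 6.1 in the fibroblasts, all above the background mark. Both isolates were higher, by 1.52-fold and 1.32-fold, with a mean difference of 0.50 ± 0.142 (SE, 95% interval -0.32 to 1.32, limma adjusted p = 0.286). Of all genes, 75.7% had a lower difference. GATA6 had 8.6 and 8.2 in the GREL isolates and 8.4 in the fibroblasts, above the mark on every array. The fibroblast value lay midway between the isolates, and the mean difference was 0.00 with an interval of -1.61 to 1.61, so a 3-fold difference either way lies within its error. Of the 8 factors, only GATA4 and GATA6 were strictly above the mark in both isolates. NR2F2 was above it in isolate 1, at 6.5, and equal to it in isolate 2, at 6.0. As values are rounded to 0.1, the side on which NR2F2 lies in isolate 2 is not settled. In the fibroblasts 4 were above the mark, namely GATA4, GATA6, TCF21 and NR2F2. The contrast of 2 with 4 therefore rests in part on this tie. The share of all genes above the mark in each kind of cell was not counted. With the 95th percentile as the mark, 0 factors were above it in both isolates and 1, GATA6, in the fibroblasts.

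EMX2, a homeobox factor, had values of 5.6 and 5.3 in the GREL isolates and 5.5 in the fibroblasts. All 3 lay somewhat below the background mark, and the fibroblasts lay between the isolates. The mean difference was -0.05 ± 0.211 (SE, 95% interval -1.27 to 1.17, limma adjusted p = 0.899). It was higher in isolate 1 and lower in isolate 2, so it has no direction here.

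FOXL2 had 2 dim probe sets. The first had values of 1.9 and 2.0 in the GREL isolates and 1.8 in the fibroblasts, and the second had 1.3 and 1.2 in the GREL isolates and 1.3 in the fibroblasts. These are levels at or under the median of the genes of other organs, to within 0.1. The mean difference of the first was 0.15 ± 0.0748 (SE, 95% interval -0.28 to 0.58, limma adjusted p = 0.392). NR0B1 likewise had 2 dim probe sets. The first had 2.6 and 2.5 in the GREL isolates and 2.2 in the fibroblasts, a mean difference of 0.35 ± 0.0748 (SE, 95% interval -0.08 to 0.78, limma adjusted p = 0.261). The second had 2.3 on all 3 arrays. FOXL2 and NR0B1 RNA was not detectable above the genes of other organs by these probe sets in either kind of cell, which does not show that it was absent.

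Genes that these factors are known to act on, with other gonadal hormones and receptors, were compared next. Of 20 listed, 16 were measured, 1 was over 3-fold higher in both isolates, 1 was over 3-fold lower (2.38% of all genes each way), and the median difference was -0.10. STAR, which carries cholesterol into mitochondria and is a target of NR5A1 and GATA4, had values of 8.0 and 7.0 in the GREL isolates and 3.5 in the fibroblasts. CYP11A1, the side-chain cleavage enzyme that acts on that cholesterol next and is also an NR5A1 target, had 1.7 and 1.5 in the GREL isolates and 4.3 in the fibroblasts. The measured values of these successive steps thus stood in opposite directions. CYP11A1 was under the background mark on every array, so the size of its difference is not fixed. HSD3B1, the dehydrogenase that follows, had 2.1 in both GREL isolates and 3.2 in the fibroblasts. CYP17A1, the androgen-forming enzyme of theca cells, had 3.1 and 2.6 in the GREL isolates and 2.1 in the fibroblasts. Neither passed 3-fold, and both were dim on every array. SCARB1, the lipoprotein receptor that takes up cholesterol, had 6.7 and 6.2 in the GREL isolates and 7.3 in the fibroblasts. FDX1, the ferredoxin that passes electrons to CYP11A1, had 7.0 and 7.4 in the GREL isolates and 8.0 in the fibroblasts. Both were lower in both isolates, within 3-fold. POR, which passes electrons to CYP17A1 and CYP19A1, had 5.1 and 5.2 in the GREL isolates and 5.4 in the fibroblasts. HSD17B1, the estradiol-forming enzyme, had 2.1 in both GREL isolates and 2.8 in the fibroblasts, under the mark like POR.

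Markers of the differentiated ovary that depend on FOXL2, NR5A1 or the GATA factors were mostly dim. CYP19A1, the aromatase of granulosa cells, had values of 1.8 in both GREL isolates and 1.7 in the fibroblasts. AMH, the anti-Müllerian hormone, had 2.2 and 1.6 in the GREL isolates and 2.0 in the fibroblasts. The gonadotrophin receptor genes FSHR and LHCGR and the theca hormone gene INSL3 were between 1.0 and 1.4 on every array. By contrast, FST, which encodes the activin-binding protein follistatin, had 8.6 and 8.8 in the GREL isolates and 9.6 in the fibroblasts. INHBA, the activin beta A subunit, had 7.3 and 6.5 in the GREL isolates and 6.4 in the fibroblasts. Both were above the background mark on every array, and neither passed 3-fold. INHA, the inhibin alpha subunit, had 4.4 and 4.5 in the GREL isolates and 4.1 in the fibroblasts, under the mark. Of the 6 granulosa markers and the 3 theca markers 0 passed 3-fold in either direction. Over all genes 2.38% passed each way, so a count of 0 among so few says little about these markers. Summed levels of the granulosa markers were 18.9 and 17.9 in the GREL isolates and 18.2 in the fibroblasts. For the theca markers the sums were 5.4 and 5.2 in the GREL isolates and 4.7 in the fibroblasts.

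**Figure D3:**
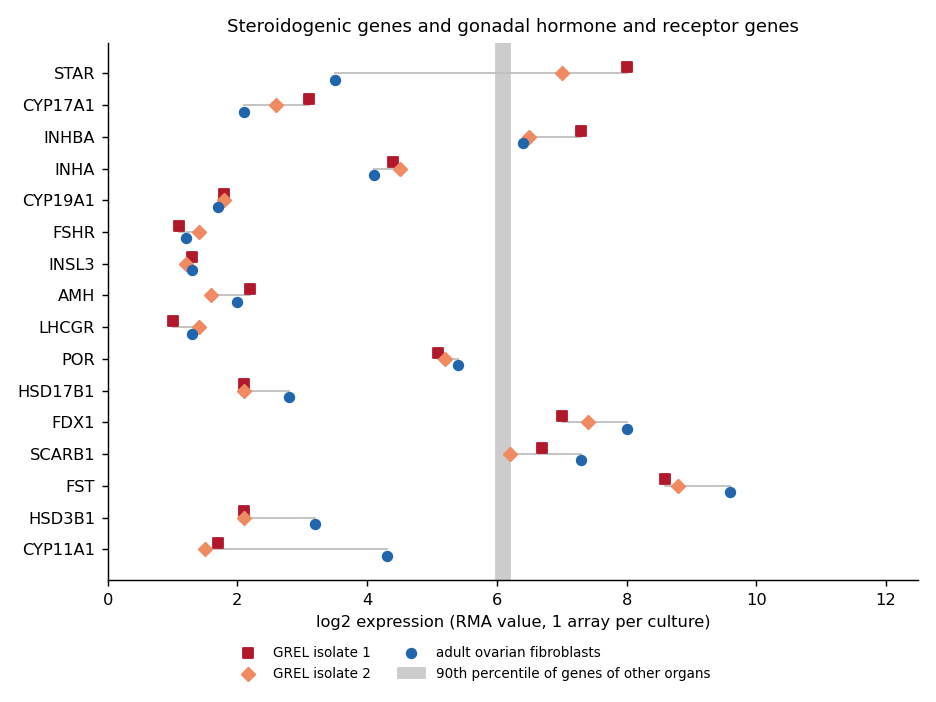
Log2 expression (horizontal axis) of the 16 measured steroidogenic, hormone and receptor genes, ordered by the difference of the GREL mean from the fibroblasts, with GREL isolate 1 as squares, GREL isolate 2 as diamonds and the adult ovarian fibroblasts as circles, 1 array each. The grey band spans the 90th percentile of genes of other organs. STAR at the top (8.0 and 7.0 in the GREL isolates, 3.5 in the fibroblasts) and CYP11A1 at the bottom (1.7 and 1.5 in the GREL isolates, 4.3 in the fibroblasts) differ over 3-fold in opposite directions as measured. CYP11A1 is left of the band on every array, so its fold is not fixed.

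Of 21 listed cofactors of these transcription factors 11 were measured, with a median difference of 0.10. Over 3-fold higher or lower in both isolates were 0 of them (2.38% of all genes each way). Of 40 listed members of the same protein families 9 were measured, 0 were over 3-fold higher and 2 over 3-fold lower (2.38% of all genes each way), with a median of -0.10. NR2F1, the closest relative of NR2F2, had values of 5.3 and 5.2 in the GREL isolates and 7.1 in the fibroblasts. Its isolate differences were -1.8 and -1.9, beside -1.2 and -1.7 for NR2F2, all from the same fibroblast array. FOXO4, a forkhead factor controlled by insulin signalling, had 3.1 and 2.8 in the GREL isolates and 6.3 in the fibroblasts. NR5A2, the relative of NR5A1 that acts in granulosa cells, had 2.2 and 2.0 in the GREL isolates and 1.7 in the fibroblasts. It was dim on every array.

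Of 41 other listed regulators of the gonadal ridge and of sex determination, 13 were measured, with 2 over 3-fold higher, 1 over 3-fold lower (2.38% of all genes each way) and a median difference of 0.05. BMP2, a growth factor of the fetal ovary, had values of 5.5 in both GREL isolates and 1.7 in the fibroblasts, all under the background mark. FGFR2, the receptor through which FGF9 acts in the fetal mouse testis, had 6.4 and 6.3 in the GREL isolates and 4.1 in the fibroblasts, though 4 dimmer probe sets of it lay within 0.3 between the groups on the mean. PTGDS, a prostaglandin D synthase, had 7.2 and 7.9 in the GREL isolates and 9.7 in the fibroblasts. Of 33 listed transcription factors of stroma and mesenchyme other than TCF21 and NR2F2, 12 were measured, with 0 over 3-fold higher, 1 over 3-fold lower (2.38% of all genes each way) and a median of -0.35. The lower one was KLF4, with 3.8 and 3.7 in the GREL isolates and 5.4 in the fibroblasts, all under the mark. Isolate 1 was 3.03-fold lower, too near 3-fold for values rounded to 0.1 to settle its side. The limma fit in its main setting called no probe set at all, so it gives no information on these lists.

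**Figure D4:**
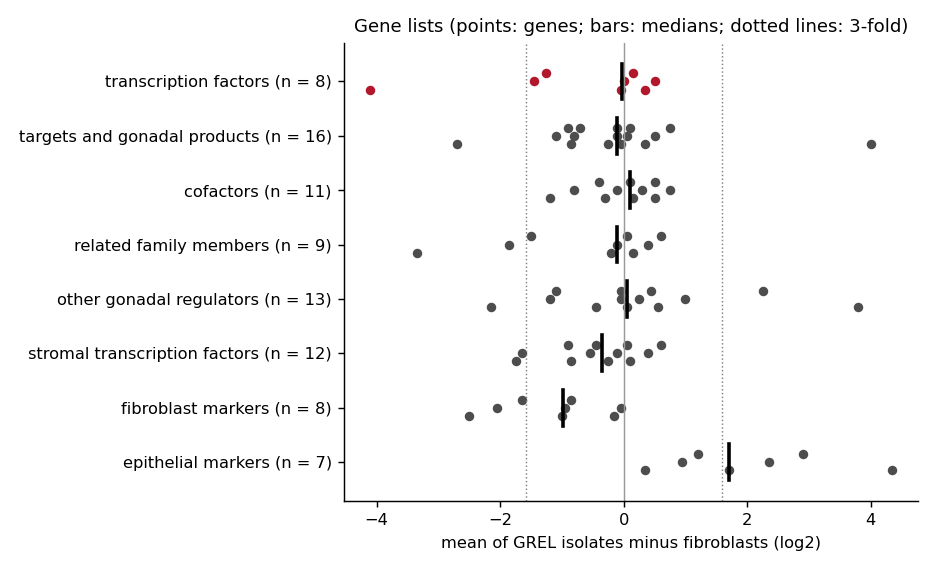
Difference of the mean of the 2 GREL isolates from the fibroblasts in log2 (horizontal axis) for the 8 transcription factors in red and 7 further gene lists in grey, where each point is a gene, each bar the median of its list and the dotted lines 3-fold. The factors have a median of -0.025, with TCF21 alone at -4.10, while fibroblast markers have a median of -0.98 and epithelial markers 1.70.

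Markers of other cells that such cultures can hold were read on the same arrays. TCF21, NR2F2, NR2F1 and PDGFRA, put together here with their values known, were all lower in both GREL isolates. Of the 12 other measured transcription factors of stroma and mesenchyme, 6 were lower in both by any amount, 2 higher in both and 4 neither. Of the 8 fibroblast markers 6 were lower in both by any amount, with a median difference of -0.98, and THY1 and VIM were not. Over all genes 33.5% were lower in both and 41.6% higher in both. The share of the factors' differences that moves with these markers was not tested, and fewer cells of a type and less RNA per cell cannot be told apart in whole cultures. Of 6 endothelial markers 1 (EMCN, 3.1 and 2.9 in the GREL isolates, 4.7 in the fibroblasts) was over 3-fold lower, beside 2.38% of all genes. It passed at 3.03-fold in isolate 1, which rounding does not settle. Its second probe set (2.2 and 2.0 in the GREL isolates, 3.4 in the fibroblasts) did not pass 3-fold. Summed levels of the 6 were 12.4 and 13.3 in the GREL isolates and 15.2 in the fibroblasts. None of the 6 was above the background mark on any array, and neither was any of 5 blood markers, with sums of 9.3 and 10.9 in the GREL isolates and 11.2 in the fibroblasts. Of 5 listed germ cell markers 2 were measured, and 1 was over 3-fold lower, beside 2.38% of all genes. This was KIT, a receptor also found on theca cells, with 1.5 and 2.7 in the GREL isolates and 5.7 in the fibroblasts, all under the mark. A second KIT probe set had 1.6 and 1.8 in the GREL isolates and 4.4 in the fibroblasts, the third differed by -0.60 and the fourth by 0.55. POU5F1 had 2.3 and 2.5 in the GREL isolates and 2.4 in the fibroblasts. The 5 smooth muscle markers had sums of 38.4 and 38.5 in the GREL isolates and 40.4 in the fibroblasts. Over 3-fold were 0 of the 5 (2.38% of all genes each way). Both mesothelial markers measured were above the mark on every array, MSLN with 8.5 and 8.4 in the GREL isolates and 7.7 in the fibroblasts and UPK3B with 6.4 and 6.6 in the GREL isolates and 6.7 in the fibroblasts. The mesonephric tubule marker PAX8 had 2.6 and 2.7 in the GREL isolates and 2.9 in the fibroblasts.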

How the data were processed

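RNA of 3 cultures (GREL n = 2, fibroblasts n = 1) was hybridised to the Affymetrix GeneChip Bovine Genome Array, a 3′ array. The authors deposited log2 values, made in Partek 6.5 (version from the submitters' processing notes) by RMA background correction followed by quantile normalization, and rounded to steps of 0.1. Quantile normalization makes each value relative to the whole array, and dim probe sets are compressed. The genome build was not given in the sources used here. Of 24128 probe sets, 112 controls were removed. Symbols came from the platform annotation, which can be old (13292 probe sets with 1 symbol, 86 with several, 10638 unnamed here), and the gene identifiers of 13263 probe sets were found in the current gene table (ARS-UCD2.0), with 0 symbols changed. No value column was left unmatched to a sample (0 columns).

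Differences are GREL minus fibroblasts. The fit used limma 3.58.1 in R 4.3.3 (lmFit, eBayes, Benjamini-Hochberg over 24016 probe sets), with 1 residual degree of freedom and 0.547 prior degrees of freedom. In 3513 probe sets both isolates had identical values. The script was tested on simulated data. Other steps used Python 3.11.15 with pandas 2.3.3. The paper describes the isolates as independent and from separate fetuses, and p-values measure only the spread between these 2. Array number limits the precision.

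Factors and gene lists were chosen with earlier results of these data known. Every measured factor and probe set was named, with list genes over 3-fold in both isolates, the genes of the target list and the 5 nearest patterns to a called factor. Genes named outside this rule (NR5A2, POU5F1, PAX8, MSLN, UPK3B and those of the other observations) were chosen after their values were seen. Alternatives were other fold thresholds, probe set rules, scalings, a filter on dim probe sets, limma with a trend or a robust prior, the methods' test (one-way analysis of variance) and leaving out either isolate. The values of each further probe set and the TCF21 difference with GREL values set to the mark were added after seeing the data.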

Additional observations from a re-analysis of the deposited data

How the results depend on the processing

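TCF21 was over 3-fold lower under every alternative that kept its measured values, and at least 2.46-fold lower (-1.30) with the GREL values set to the background mark. The count of factors over 3-fold lower in both isolates, 1 in the analysis as reported, was 3 at a 2-fold threshold and 2 with each gene's probe set of largest difference, the added gene being NR2F2. It ranged from 1 to 2 when either isolate was left out, and was 2 without isolate 1, when NR2F2 passed as well. Over all genes, 218 higher and 218 lower as reported became 531 and 438 at 2-fold, 88 and 121 at 4-fold, 127 and 122 with the filter on dim probe sets, and 431 and 331 without isolate 1. No other setting moved the count of factors, and 0 factors were over 3-fold higher under any setting. Of 60 differences of single factors under alternatives, 45 moved by no more than 1 SD of the 2 isolates, 11 moved by more and 4 changed sign. The sign changes were the third NR2F2 probe set (0.05), the fourth NR5A1 probe set (0.10), the second FOXL2 probe set (-0.05) and EMX2, at -0.20 to 0.10 when either isolate was left out. The filter on dim probe sets left no value for NR5A1, EMX2, FOXL2 and NR0B1. With a robust prior limma called 1189 probe sets (571 higher, 618 lower), none of a measured factor (TCF21 adjusted p = 0.0923). The other limma settings and the methods' test called 0. TCF21 had adjusted p-values of 0.0923 to 0.663 over the alternatives in which it was tested. With the 95th percentile as background mark, 0 factors were above it in both isolates and 1, GATA6, in the fibroblasts, against 2 and 4. The count of 2 leaves out NR2F2, which equalled the reported mark in isolate 2. No paired analysis was possible because the fibroblasts are 1 sample. The cause of these shifts was not tested. Rounding to 0.1 and the single fibroblast array limit every difference near 0.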

Other observations

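Further families of transcription factors were looked at after their values had been seen, so no test is given. Of 27 nuclear receptors measured, NR2F2, NR5A1 and NR0B1 among them, 3 were over 3-fold lower in both GREL isolates and 0 higher (2.38% of all genes each way), with a median difference of -0.20. Beside NR2F1 these were 2 receptors induced rapidly by many stimuli. NR4A1 had values of 3.9 and 3.3 in the GREL isolates and 6.7 in the fibroblasts. NR4A2 had 3.3 and 2.4 in the GREL isolates and 5.1 in the fibroblasts, with its 3 dimmer probe sets close on all arrays.

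Of 11 HOX genes measured, which give cells a position along the body axis, 2 were over 3-fold higher in isolate 2 than in isolate 1 and 0 the other way, beside 16 of all genes (0.175%) over 3-fold higher in isolate 2. HOXA5 had values of 5.4 and 6.1 in the GREL isolates and 2.2 in the fibroblasts, above the background mark in isolate 2 alone. It was the 1 of the 11 that was over 3-fold higher in both (2.38% of all genes). Its second, dimmer probe set had 2.0 and 2.3 in the GREL isolates and 2.0 in the fibroblasts, which does not repeat the difference. HOXA9 had 2.5 in isolate 1, 5.5 in isolate 2 and 1.5 in the fibroblasts. HOXD10 had 1.8 in isolate 1, 4.6 in isolate 2 and 1.7 in the fibroblasts. Both HOXA9 and HOXD10 were under the mark on every array. Only isolate 2 was thus apart from the fibroblasts for HOXD10. Over all genes, 46 (0.502%) were over 3-fold apart between the isolates, and 7 were at least as far apart as HOXD10. None of the 8 gonadal factors was among the 46, their widest gap being 0.5.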
